A study of Homo sapiens with 44 samples.

Results

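The S100 genes followed here are S100A8, S100A9, S100A12, S100A4, S100A6, S100A10, S100A11 and S100P, 8 of the 12165 genes that the arrays measure. They were taken by name: every probe set whose only gene symbol in the platform annotation is one of these 8 was read, which gave 9 of 22277 probe sets. S100A8 has a second, dimmer probe set, and every other member has 1. The 44 arrays come from 4 human acute myeloid leukemia cell lines grown in RPMI medium with fetal bovine serum: HL-60, a promyelocyte-like line, THP-1 and U937, both monocyte-like, and MOLM-14, which is also monocyte-like. Each line received, by lentivirus, a scrambled control hairpin (3 arrays), hairpin 5 or hairpin 6 against GSK3A, or hairpin B-1 or B-2 against GSK3B (2 arrays each), where GSK3A and GSK3B encode the α and β forms of glycogen synthase kinase 3. All arms, control included, were infected and kept in puromycin at 1 µg per mL from 48 h after infection, and RNA was taken 48 h after that. The labels call the repeats biological without naming separate cultures, so the p-values rest on the spread among these arrays, which may be technical.

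S100 proteins are small EF-hand proteins that bind calcium and work as dimers. S100A8 and S100A9 pair into calprotectin, the most abundant cytosolic protein complex of neutrophils and a product of maturing granulocytes and monocytes, which binds zinc and manganese and, once released, signals through TLR4 and RAGE; S100A12 is a related granulocyte protein. S100A4 binds non-muscle myosin and is tied to cell motility, S100A6 binds annexins and calcyclin-binding protein, S100A10 (p11) joins annexin A2 in a tetramer that promotes plasmin formation at the cell surface, S100A11 binds annexin A1, and S100P binds ezrin and RAGE. In the human genome most of them lie in a cluster on chromosome 1.

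In the RefSeq gene order S100A9, S100A12 and S100A8 are consecutive coding genes, S100A5 alone lies between S100A6 and S100A4, S100A10 and S100A11 are next to each other, and S100P is on chromosome 4. The promoters of the pairs that moved together in the arrays, S100A8 with S100A9 and S100A4 with S100A6, are shown as the 250 bases before a RefSeq transcription start (GRCh38.p14), 5′ to 3′ along the gene. RefSeq gives S100A8 3 starts, and the most upstream is shown. They are chr1:153391189-153391438 (minus strand) for S100A8, chr1:153357604-153357853 (plus strand) for S100A9, chr1:153545807-153546056 (minus strand) for S100A4 and chr1:153535992-153536241 (minus strand) for S100A6. Capitals mark every match, on either strand, to C/EBP (TTGCNNAA), PU.1 (GAGGAA), AP-1 (TGANTCA), TCF/LEF (CTTTGAT) and the TATA box (TATAAA), and no 2 matches overlap.
S100A8: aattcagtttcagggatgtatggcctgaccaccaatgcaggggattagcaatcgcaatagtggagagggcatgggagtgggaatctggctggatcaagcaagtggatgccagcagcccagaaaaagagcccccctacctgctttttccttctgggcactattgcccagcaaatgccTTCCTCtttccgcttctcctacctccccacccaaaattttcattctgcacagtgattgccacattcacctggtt
S100A9: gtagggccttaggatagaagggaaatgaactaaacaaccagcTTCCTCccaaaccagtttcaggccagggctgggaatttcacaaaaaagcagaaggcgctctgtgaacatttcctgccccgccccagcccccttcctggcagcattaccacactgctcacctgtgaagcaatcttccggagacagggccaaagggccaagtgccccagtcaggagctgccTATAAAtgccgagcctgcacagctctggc
S100A4: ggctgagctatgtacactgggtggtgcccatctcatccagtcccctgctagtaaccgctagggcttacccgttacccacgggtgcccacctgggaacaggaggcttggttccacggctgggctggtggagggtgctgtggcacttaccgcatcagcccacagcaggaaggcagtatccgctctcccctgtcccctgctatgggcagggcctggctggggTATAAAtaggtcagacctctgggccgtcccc
S100A6: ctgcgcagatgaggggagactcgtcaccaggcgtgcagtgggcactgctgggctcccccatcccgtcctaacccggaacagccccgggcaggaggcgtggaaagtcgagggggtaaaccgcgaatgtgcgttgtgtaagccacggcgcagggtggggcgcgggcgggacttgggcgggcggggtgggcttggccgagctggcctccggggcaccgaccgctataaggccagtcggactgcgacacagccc
S100A8 and S100A9 each hold TTCCTC, the PU.1 core on the other strand, starting 74 and 208 bases before these starts, a match present in 23.6% of the 34943 promoter windows of this length. S100A9 has TATAAA starting 29 bases before its start and S100A4 starting 31 bases before, and S100A8 has it 29 bases before its second start. TATAAA was found in 10.8% of all windows. The S100A6 window holds none of the 5 motifs. Of the members not shown, S100A12 has a C/EBP match 94, an AP-1 match 57 and a TATAAA 8 bases before its start, S100A11 a C/EBP match 33 bases before, S100P a TATAAA 28 bases before, and S100A10 none. C/EBP matches lie in 9.06% of all windows, AP-1 in 6.59% and TCF/LEF in 2.27%, and no member window holds the last. These are matches of letters, not measured binding sites.

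Values below are the deposited intensities, on a linear scale, and cannot be compared between genes because each probe set has its own efficiency. Changes are log2 differences of log2(intensity + 16) after quantile normalization, ± the standard error of a limma fit over all 12165 genes and 44 arrays, with Benjamini-Hochberg adjusted p-values and a threshold of 0.05. The pseudocount of 16 makes changes of dim genes smaller than their changes in intensity. The labels place the arrays on a plate with 1 row per line, and plate columns 1 to 6 and 7 to 11 gave different S100 values in 2 of the lines. For this reason, in each list of values the controls are given in the order of columns 1, 2 and 7, and for each hairpin the array in columns 1 to 6 comes before the array in columns 7 to 11. A second fit gave each line its own term for columns 7 to 11 against 1 to 6, called the plate-adjusted fit. Across all arrays the medians ran from 18.95 to 22.9, all 44 arrays were most alike to arrays of their own line, and no 2 were identical. In control arrays 6 of 8 measured myeloid markers reached an intensity of 100 in every line, led by MPO in HL-60 (5575), ELANE in THP-1 (4016), and CTSG in MOLM-14 (3791) and U937 (6397), while no B cell or erythroid and megakaryocyte marker did. NKG7 was the one T and NK cell marker to do so (985 in U937), and KRT18 in MOLM-14 (170.3) the one epithelial or stromal marker. GSK3B fell by 1.43 ± 0.06 with B-1 and 1.69 ± 0.06 with B-2 over the lines, whereas the dim GSK3A probe set fell by 0.07 ± 0.03 with hairpin 5 (adjusted p = 0.110) and 0.10 ± 0.03 with hairpin 6 (0.0254), so the knockdown of GSK3A is barely seen on these arrays.

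The 4 lines differed in their S100 repertoire before any knockdown. HL-60 had the calprotectin genes and S100A12 at their highest, U937 had S100P at its highest and S100A8 at its lowest, and S100A4, S100A6 and S100A11 were highest in THP-1 and U937. All 8 members passed the F-test over the lines in the control arrays, as did 67.8% of all genes.

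S100A8 averaged 5516 ± 303 (SD, n = 3) in HL-60 controls, 1779 ± 1256 in MOLM-14, 628 ± 6.77 in THP-1 and 87.6 ± 55.4 in U937. The step from MOLM-14 to THP-1 did not pass (log2 difference of THP-1 minus MOLM-14 -1.31 ± 0.64, limma adjusted p = 0.108), whereas the other neighbours in this order did. S100A9 followed the same order, with 1305 ± 40.2 in HL-60, 252 ± 123 in MOLM-14, 129 ± 5.04 in THP-1 and 53.8 ± 32.9 in U937 (SD, n = 3), and again only MOLM-14 and THP-1 did not differ beyond their spread (limma adjusted p = 0.136). In the plate-adjusted fit that step passed for both genes (THP-1 minus MOLM-14 -0.81 ± 0.14 for S100A8 and -0.60 ± 0.11 for S100A9). Within columns 7 to 11 alone HL-60 minus MOLM-14 did not pass for S100A8 (0.69, limma adjusted p = 0.488). S100A12 was seen in HL-60 alone, at 166 ± 20.9 (SD, n = 3). On the arrays of the other lines it stayed between 11.7 and 24.8, near the median of all probe sets on an array, and no pair of those lines differed by the test.

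S100P, first described in placenta, averaged 2787 ± 790 in U937 controls, 510 ± 20.4 in HL-60, 251 ± 111 in MOLM-14 and 40.8 ± 4.28 in THP-1 (SD, n = 3), and every step of this order passed. The MOLM-14 mean joins 316 and 315 in columns 1 and 2 with 123 in column 7, and HL-60 minus MOLM-14 did not pass within columns 1 to 6 (0.60, limma adjusted p = 0.333) or within 7 to 11 (1.95, 0.0903). S100A4 averaged 3465 ± 192 in THP-1, 2794 ± 193 in U937, 1385 ± 153 in MOLM-14 and 1193 ± 43.3 in HL-60 (SD, n = 3). Its MOLM-14 and HL-60 levels fell just short of the threshold for a difference (HL-60 minus MOLM-14 -0.24 ± 0.10, limma adjusted p = 0.0501). S100A6 averaged 1106 ± 76.6 in THP-1, 1000.2 ± 78.7 in U937, 618 ± 73.2 in MOLM-14 and 146 ± 13.6 in HL-60 (SD, n = 3), with THP-1 and U937 not separated (limma adjusted p = 0.0724).

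S100A10 took another order, with 1155 ± 85.1 in MOLM-14, 737 ± 12.9 in THP-1, 431 ± 40.2 in U937 and 166 ± 1.55 in HL-60 (SD, n = 3), and all its steps passed. S100A11 had the smallest differences between lines, from 523 ± 74.9 in MOLM-14 and 682 ± 56.1 in HL-60 to 1037 ± 25.4 in THP-1 and 1073 ± 146 in U937 (SD, n = 3), and the last pair did not differ by the test (limma adjusted p = 0.886). HL-60, the line richest in S100A8, S100A9 and S100A12, was thus the line poorest in S100A6 and S100A10.

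With GSK3A hairpins, S100A4, S100A6, S100A10 and S100A11 rose over the 4 lines and no member fell. The gain was 0.55 ± 0.05 for S100A4 (adjusted p = 1.39e-09), 0.58 ± 0.04 for S100A6 (9.58e-11), 0.30 ± 0.05 for S100A10 (1.87e-05) and 0.15 ± 0.04 for S100A11 (0.00982), by limma. Those 4 of 8 members stand beside 21.0% of all genes called in either direction and 10.9% called higher, and the median change was 0.13 over the members and 0.00 over all genes. The spread behind these p-values lies between repeat arrays of a hairpin, not between the hairpins of a target.

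S100A4 in HL-60 read 1241, 1181 and 1157 on control arrays, 2747 and 2810 with hairpin 5, and 1515 and 1747 with hairpin 6. In MOLM-14 it read 1240, 1370 and 1544 on control arrays, 3095 and 2595 with hairpin 5, and 1649 and 1596 with hairpin 6. U937 gave 2692, 2674 and 3017 on control arrays, 3749 and 3845 with hairpin 5, and 3688 and 3725 with hairpin 6. Every GSK3A array of these lines lay above every control array of its line. THP-1, which starts highest, showed the same order with smaller steps, at 3665, 3447 and 3282 on control arrays, 4296 and 4180 with hairpin 5, and 3996 and 4277 with hairpin 6. So 16 of 16 GSK3A arrays were above all controls of their line for S100A4.

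S100A6 in HL-60 read 162, 138 and 139 on control arrays, 408 and 411 with hairpin 5, and 239 and 244 with hairpin 6, the largest relative gain of any member in the target comparisons within a line (1.01 ± 0.08 for both hairpins together). In MOLM-14 it read 560, 594 and 700 on control arrays, 1177 and 1172 with hairpin 5, and 1102 and 945 with hairpin 6. For S100A6, 15 of 16 GSK3A arrays lay above all controls of their line, and 16 of 16 above the controls in the same columns. The exception was a THP-1 array with hairpin 6 in columns 1 to 6 at 1157, against controls of 1029, 1105 and 1182. These counts for S100A4 and S100A6 have no share of all genes beside them, so whether they are unusual cannot be told.

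**Figure D1:**
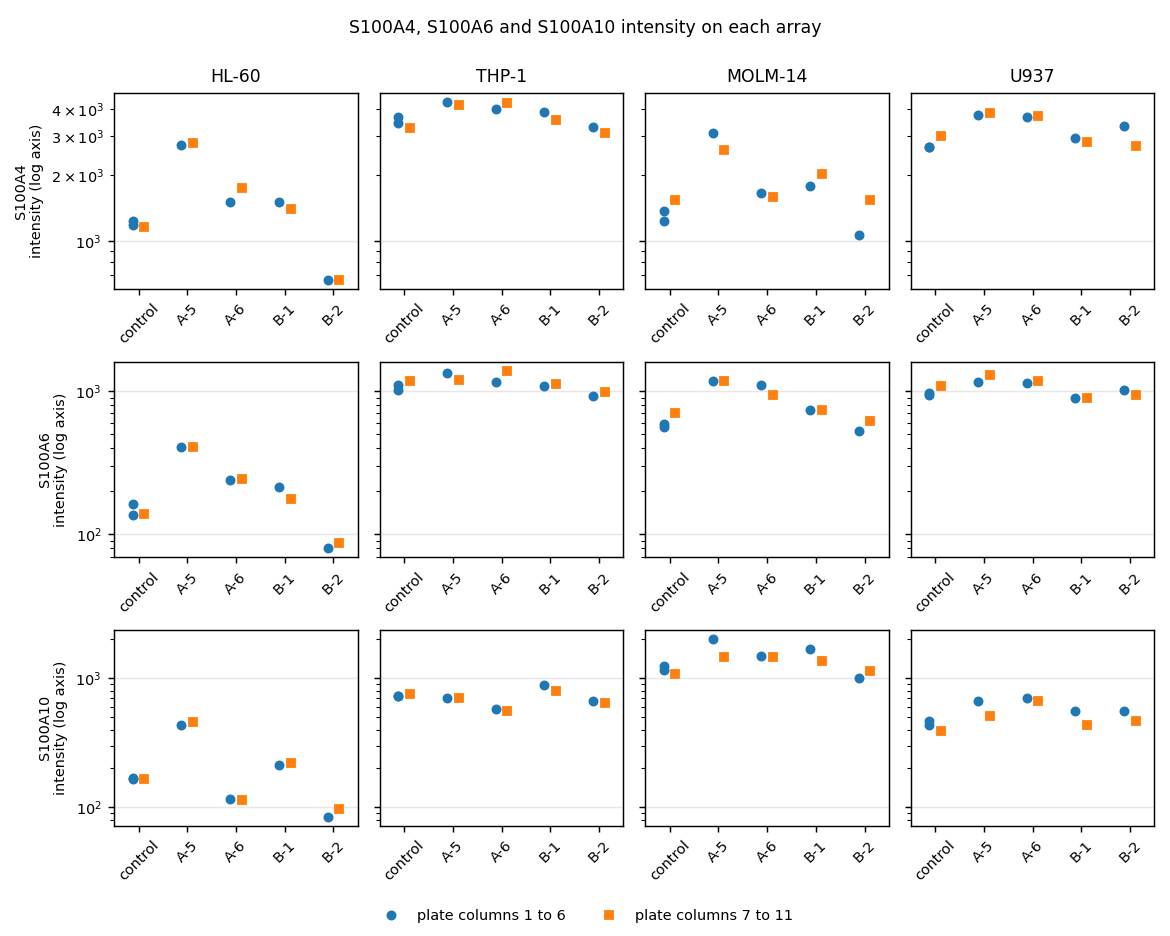
Deposited intensity (log axis) of S100A4, S100A6 and S100A10 on each of the 44 arrays, by cell line and hairpin (A-5 and A-6 against GSK3A, B-1 and B-2 against GSK3B), circles for plate columns 1 to 6 and squares for 7 to 11. S100A4 with A-5 and A-6 is above the controls in every line, and in HL-60 S100A10 is at 433 and 461 with A-5 but at 117 and 114 with A-6.

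The size of the GSK3A change depended on the line. The F-test of the interaction passed for S100A6 (adjusted p = 2.77e-05), S100A10 (6.48e-04) and S100A4 (0.0333), 3 of 8 members beside 7.83% of all genes. HL-60 had 3 members higher (S100A4 0.82 ± 0.09, S100A6 1.01 ± 0.08 and S100A10 0.43 ± 0.09) beside 9.02% of genes called. MOLM-14 had 4 (S100A4 0.66 ± 0.09, S100A6 0.85 ± 0.08, S100A10 0.44 ± 0.09 and S100A11 0.32 ± 0.08) beside 15.9%, and U937 had 3 (S100A4 0.45 ± 0.09, S100A6 0.27 ± 0.08 and S100A10 0.56 ± 0.09) beside 6.72%. In THP-1 limma called 0 of 8 beside 2.01%, with 3 at an unadjusted p under 0.05, and S100A10 there was -0.23 ± 0.09 (adjusted p = 0.308). Without the THP-1 arrays the interaction passed for 1 member, in a fit with fewer arrays whose share of all genes is not given.

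With the plate-adjusted fit, 5 of 8 members passed over the lines for GSK3A, beside 33.2% of genes: the same 4 higher, and S100A9 lower (-0.17 ± 0.05, adjusted p = 0.0107). Within lines this fit called S100A8 and S100A9 lower in THP-1 (-0.88 ± 0.12 and -0.65 ± 0.10) and in MOLM-14 (-0.33 ± 0.12 and -0.55 ± 0.10), S100P lower in MOLM-14 (-0.52 ± 0.19, adjusted p = 0.0474), S100A8 higher in U937 (0.42 ± 0.12) and S100A4 higher in THP-1 (0.29 ± 0.09, adjusted p = 0.0490), beside the calls made without the plate term. Of all genes it called 13.3% lower in MOLM-14, 3.61% lower and 3.86% higher in THP-1, and 8.11% higher in U937. Some of these calls are means of hairpins on opposite sides of 0. Hairpin 5 and hairpin 6 gave 0.12 and -0.46 for S100A9 over the lines. They gave 0.27 and -1.32 for S100P in MOLM-14, and 0.95 and -0.11 for S100A8 in U937. The interaction then passed also for S100A8 (adjusted p = 1.01e-05), S100A9 (8.74e-06) and S100P (0.0235), beside 24.9% of genes. Within columns 1 to 6 alone, limma called S100A4 (0.57 ± 0.17, adjusted p = 0.0448) and S100A6 (0.62 ± 0.15, 0.0155) with GSK3A hairpins, beside 11.5% of genes. Columns 7 to 11 alone hold 1 control array per line and called 0 of 8 beside 0.345%, with S100A4 at 0.51 ± 0.20 and S100A6 at 0.50 ± 0.17, the 2 members at an unadjusted p under 0.05.

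With both GSK3B hairpins pooled, limma called 0 of 8 members over the lines, beside 3.32% of genes, and 0 of 8 had an unadjusted p under 0.05. The plate-adjusted fit also called 0 of 8 over the lines, beside 10.1%, and again 0 had an unadjusted p under 0.05. The largest of the 8 changes was 0.07 ± 0.05 for S100A12, and the median was 0.03. Without the plate term, 0 members passed in any single line, beside 0.986% of genes in HL-60, 1.44% in MOLM-14, 0.0493% in THP-1 and 0.214% in U937. At an unadjusted p under 0.05 the members numbered 3, 1, 0 and 1 in the same order. Plate-adjusted, S100A9 was lower (-0.37 ± 0.10, adjusted p = 0.0278) and S100A11 higher (0.25 ± 0.07, 0.0443) in MOLM-14, beside 6.77%. For S100A9 there the mean joins 0.27 ± 0.12 with B-1 and -1.01 ± 0.12 with B-2.

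Set against each other by limma, GSK3A hairpins gave more S100A4 (0.54 ± 0.04, adjusted p = 3.60e-10), S100A6 (0.64 ± 0.04, 2.39e-12) and S100A10 (0.25 ± 0.04, 4.97e-05) than GSK3B hairpins, 3 of 8 members beside 21.8% of genes. The control means do not enter this difference, but the control arrays enter its standard error. Without HL-60 the S100A10 difference was 0.13 and did not pass (adjusted p = 0.142). Columns 1 to 6 alone called S100A6 only, beside 7.71% of genes, and so did columns 7 to 11 alone, beside 3.18%. The plate-adjusted fit added S100A11 (0.10 ± 0.03, adjusted p = 0.0234) as higher, and S100A8 (-0.19 ± 0.06, 0.0103) and S100A9 (-0.16 ± 0.05, 0.00949) as lower, beside 33.8%.

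The GSK3B hairpins differed, and for S100A4 and S100A10 the pooled mean joins changes that passed in opposite directions. In the plate-adjusted fit S100A8 and S100A9 also passed in opposite directions over the lines. S100A8 was at 0.50 ± 0.07 with B-1 and -0.37 ± 0.07 with B-2, and S100A9 at 0.43 ± 0.06 and -0.45 ± 0.06. Without the plate term the single hairpins gave the following calls. B-1 raised S100A12 (0.20 ± 0.06, adjusted p = 0.0419), S100A4 (0.22 ± 0.06, 0.0175) and S100A10 (0.27 ± 0.05, 0.00284), 3 of 8 beside 2.44% of genes called higher. B-2 lowered S100A4 (-0.19 ± 0.06, 0.0373), S100A6 (-0.24 ± 0.05, 0.00226) and S100A10 (-0.18 ± 0.05, 0.0446), 3 of 8 beside 2.94% called lower. The direct test of B-1 minus B-2 called 5 of 8 members, all higher with B-1, beside 5.27% of genes called higher. These were S100A9 (0.88 ± 0.27), S100A12 (0.26 ± 0.06), S100A4 (0.41 ± 0.06), S100A6 (0.37 ± 0.05) and S100A10 (0.45 ± 0.06). In HL-60 alone B-2 passed as lower for the same 3 members, beside 1.66% of genes called lower, with S100A4 at -0.81 ± 0.11, whereas S100A4 was 0.16 in U937, -0.05 in MOLM-14 and -0.06 in THP-1, none of which passed. With B-2 limma called 0 of 8 members in each of those lines, where 1, 2 and 0 in the same order had an unadjusted p under 0.05. No share of all genes is given for B-2 in these lines. In the plate-adjusted fit B-2 passed as lower in MOLM-14 for S100A8 (-0.81 ± 0.15), S100A9 (-1.01 ± 0.12) and S100P (-0.77 ± 0.23). That fit also called S100A8 lower in THP-1 (-0.61 ± 0.15), and 0 members in U937. B-1 minus B-2 called 5 of 8 members in HL-60, beside 3.92% of genes called higher, and S100A4 and S100A10 in MOLM-14, beside 2.35%. It called 0 in THP-1 and U937, with 1 and 0 members at an unadjusted p under 0.05, and no share of all genes is given for these lines. In the plate-adjusted fit B-1 minus B-2 did pass there. In THP-1 it called 3 members, S100A8 (0.97 ± 0.16), S100A9 (0.68 ± 0.13) and S100A10, and in U937 S100A9 alone (0.51 ± 0.13). Both hairpins had lowered GSK3B itself, B-2 by 0.25 ± 0.06 more than B-1 (adjusted p = 0.00607).

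In HL-60 the split is plain on the arrays. S100A4 read 1506 and 1407 with B-1 but 669 and 667 with B-2, on either side of its controls at 1157 to 1241. S100A6 read 215 and 178 with B-1 and 80 and 88 with B-2, against controls of 138 to 162. S100A10 read 212 and 220 with B-1 and 84 and 97 with B-2, against controls of 165, 168 and 166. For these genes no B-1 array overlapped a control array in HL-60, and no B-2 array did. The share of all genes that separate in this way is not given, so whether this is unusual cannot be told.

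The GSK3A hairpins also differed, although both raised S100A4 and S100A6. Hairpin 5 called 4 of 8 members higher (S100A4 0.75 ± 0.06, S100A6 0.70 ± 0.05, S100A10 0.55 ± 0.05 and S100A11 0.18 ± 0.05) beside 11.5% of genes called higher. Hairpin 6 called 2 (S100A4 0.35 ± 0.06 and S100A6 0.46 ± 0.05) beside 8.80%. The direct test of hairpin 5 minus hairpin 6 called 4 of 8, all higher with hairpin 5 (S100A12 0.19 ± 0.06, S100A4 0.39 ± 0.06, S100A6 0.24 ± 0.05 and S100A10 0.51 ± 0.06), beside 16.8% of genes in either direction and 8.61% higher.

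S100A10 shows the sharpest disagreement between hairpins of 1 target. In HL-60 it read 165, 168 and 166 on control arrays, 433 and 461 with hairpin 5, and 117 and 114 with hairpin 6, so hairpin 5 lay above and hairpin 6 below every control. Hairpin 5 minus hairpin 6 there was 1.79 ± 0.12 (limma adjusted p = 3.48e-11), but it was -0.22 ± 0.12 in U937, 0.20 ± 0.12 in MOLM-14 and 0.27 ± 0.12 in THP-1, none of which passed. The rise of S100A10 with GSK3A hairpins is therefore a mean over unlike hairpins in HL-60. In U937 both hairpins had it higher, at 668 and 512 with hairpin 5 and 697 and 667 with hairpin 6 against 469, 434 and 389. Across the 4 hairpins, 12 calls of single members were made over the lines with all arrays and 5 without HL-60. The fit without HL-60 has fewer arrays, and no share of all genes is given beside these 2 counts.

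**Figure D2:**
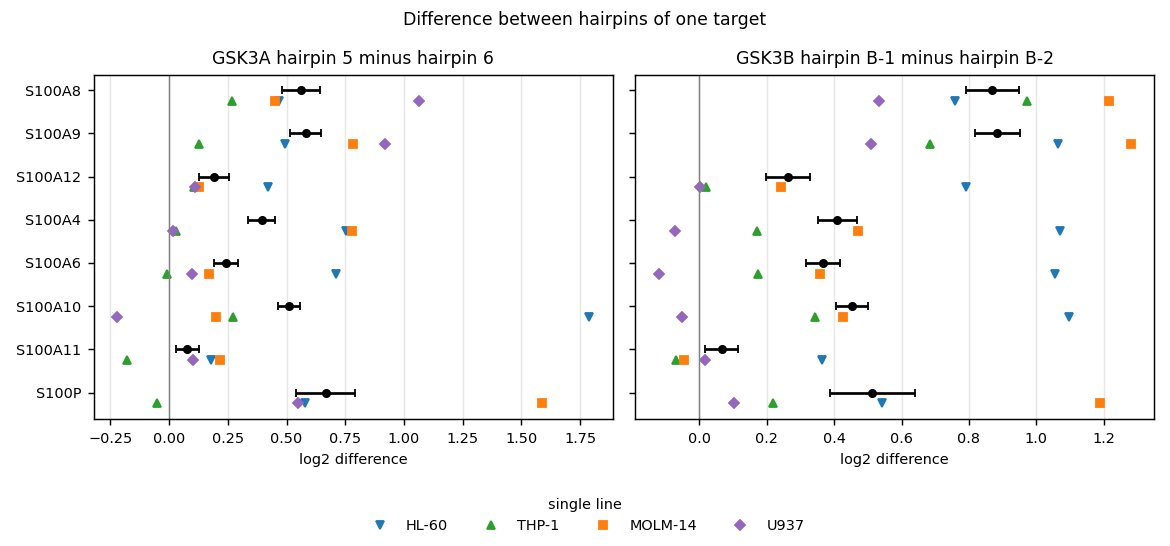
Log2 difference between the hairpins of 1 target for each S100 gene, from the plate-adjusted fit: black points with bars are the mean over the 4 lines ± the standard error, coloured symbols the single lines. All 8 means lie above 0 in both panels, and the largest single-line value is 1.79 for S100A10 in HL-60.

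Once the plate columns were adjusted for, S100A8, S100A9 and S100P also passed in these tests. Hairpin 5 minus hairpin 6 then passed for 7 of 8 members, all higher with hairpin 5, beside 29.4% of genes in either direction and 14.6% higher. B-1 minus B-2 passed for 7 of 8, all higher with B-1, beside 22.5% and 9.99%. S100A8 differed by 0.56 ± 0.08 between the GSK3A hairpins (adjusted p = 4.57e-06) and 0.87 ± 0.08 between the GSK3B hairpins (9.11e-09). S100A9 differed by 0.58 ± 0.07 (1.72e-07) and 0.88 ± 0.07 (2.53e-10), and S100P by 0.67 ± 0.13 (1.97e-04) and 0.51 ± 0.13 (0.00377). S100A11 did not pass in either (0.08 ± 0.05 and 0.07 ± 0.05).

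The order of the hairpins can be read from single arrays of the same line and plate columns, 8 such sets per gene. S100A8, on its brighter probe set, and S100A9 were each higher with hairpin 5 than with hairpin 6 in 8 of 8 sets. Each was also higher with B-1 than with B-2 in 8 of 8. The dimmer S100A8 probe set had hairpin 5 below hairpin 6 in both HL-60 sets (136 against 144, and 122 against 160). It had B-1 below B-2 in columns 7 to 11 of HL-60 (147 against 150.2), and the same order as the brighter one elsewhere. S100P was higher with B-1 in 8 of 8 and with hairpin 5 in 6 of 8. Over all members, hairpin 5 exceeded hairpin 6 in 55 of 64 comparisons and B-1 exceeded B-2 in 52 of 64. These counts describe arrays that the fits above also use. No share over all genes was computed for them, so whether they are unusual cannot be told. The 64 comparisons are also not separate, since some members varied together (S100A8 with S100A9, mean correlation 0.96).

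S100A8 in HL-60 read 5864, 5366 and 5317 on control arrays, 7532 and 7698 with hairpin 5, 5779 and 5730 with hairpin 6, 7952 and 7591 with B-1, and 4917 and 4892 with B-2. Hairpin 5 and B-1 were above all controls, B-2 was below them, and hairpin 6 lay among them. In THP-1 it read 635, 624 and 624 on control arrays, 357 and 380 with hairpin 5, 300.5 and 303 with hairpin 6, 867 and 754 with B-1, and 375 and 415 with B-2. There both GSK3A hairpins and B-2 were below every control and B-1 was above, so hairpin 5 took the side of the controls opposite to the one it took in HL-60.

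S100A9 in HL-60 read 1352, 1283 and 1282 on control arrays, 1867 and 1747 with hairpin 5, 1338 and 1237 with hairpin 6, 2288 and 2345 with B-1, and 1099 and 1042 with B-2. In THP-1 it read 131, 124 and 133 on control arrays, 78 and 88 with hairpin 5, 71 and 76 with hairpin 6, 158 and 155 with B-1, and 82 and 105 with B-2. The positions relative to controls matched those of S100A8, its partner in calprotectin, except that 1 HL-60 array with hairpin 6 lay just below the lowest control.

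MOLM-14 gave 1006, 1103 and 3228 for S100A8 on control arrays, 1095 and 2594 with hairpin 5, 787 and 1898 with hairpin 6, 1713 and 3640 with B-1, and 458 and 2279 with B-2. U937 gave 122, 117 and 24 on control arrays, 273 and 52 with hairpin 5, 104 and 21 with hairpin 6, 216 and 41 with B-1, and 142 and 23 with B-2. In these lines the 2 arrays of any construct are far apart, columns 7 to 11 being higher in MOLM-14 and lower in U937, while within each set of columns hairpin 5 stays above hairpin 6 and B-1 above B-2. S100A9 behaved alike, at 171, 191 and 394 on MOLM-14 control arrays, 87 and 181 there with hairpin 6, and 79 and 185 with B-2.

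**Figure D3:**
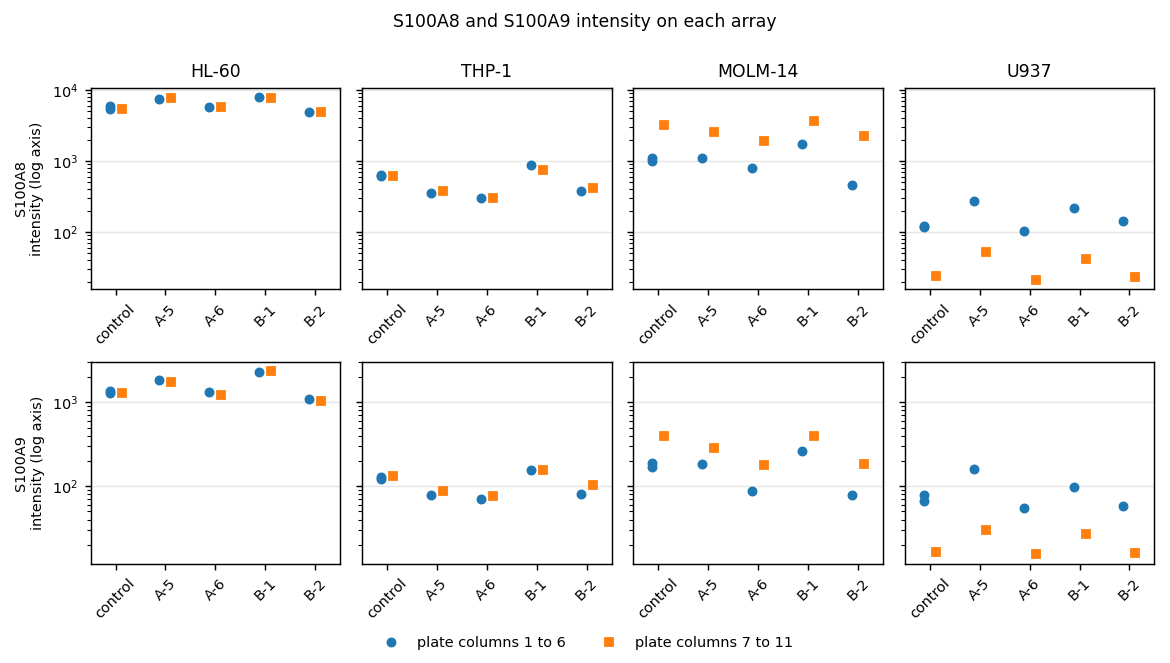
Deposited intensity (log axis) of S100A8 and S100A9 on each of the 44 arrays by line and hairpin, circles for plate columns 1 to 6 and squares for 7 to 11. In HL-60 and THP-1 circles and squares lie close together, whereas in MOLM-14 the squares and in U937 the circles are higher for every construct.

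S100P in MOLM-14 read 316, 315 and 123 on control arrays, 266 and 229 with hairpin 5, 77 and 70 with hairpin 6, 512 and 148 with B-1, and 234 and 52 with B-2. Hairpin 6 was below every control there, and its change of -1.32 was the lowest of any member and hairpin in the plate-adjusted fit. In HL-60 it read 824 and 819 with hairpin 5 and 693 and 739 with B-1, above controls of 489 to 530. The THP-1 arrays were dim, with 38 to 46 on control arrays and 62 to 69 with GSK3A hairpins. S100A12, measurable in HL-60 only, read 188, 163 and 147 on control arrays, 265 and 278 with B-1 and 133 and 166 with B-2.

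**Figure D4:**
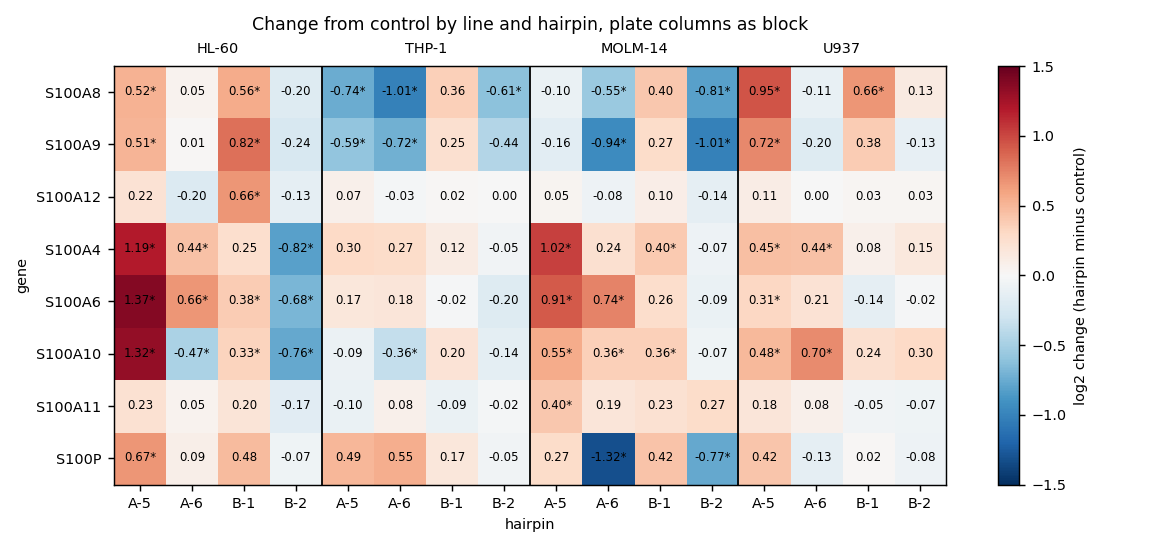
Log2 change from control for each S100 gene (rows) with each hairpin in each line (columns), from the plate-adjusted limma fit, red for higher and blue for lower, with an asterisk where the adjusted p is under 0.05. S100A4 and S100A6 are above 0 with both GSK3A hairpins in every line, whereas S100A8 and S100A9 are lower with A-6 and B-2 in MOLM-14 (-0.55 and -0.81 for S100A8) and higher with A-5 in HL-60 and U937.

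In 2 of the 4 lines S100A8 differed more between plate columns than it did between any hairpin and the control. In columns 7 to 11 against 1 to 6, S100A8 was higher by 1.51 ± 0.10 in MOLM-14, rank 5 of 12165 genes by size, and lower in U937 (-1.90 ± 0.10), rank 3. S100A9 was higher by 0.86 ± 0.08 in MOLM-14 and lower in U937 (-1.43 ± 0.08, rank 14). S100P went the opposite way, lower in MOLM-14 (-1.05 ± 0.15, rank 26) and higher in U937 (0.67 ± 0.15). S100A11 in MOLM-14 (0.16 ± 0.06) and S100A10 in U937 (-0.23 ± 0.06) also passed, which makes 4 of 8 members in each of these lines, beside 34.2% and 36.0% of genes. In HL-60 and THP-1 limma called 0 of 8, 0 with an unadjusted p under 0.05, beside 0.00822% and 0% of genes.

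**Figure D5:**
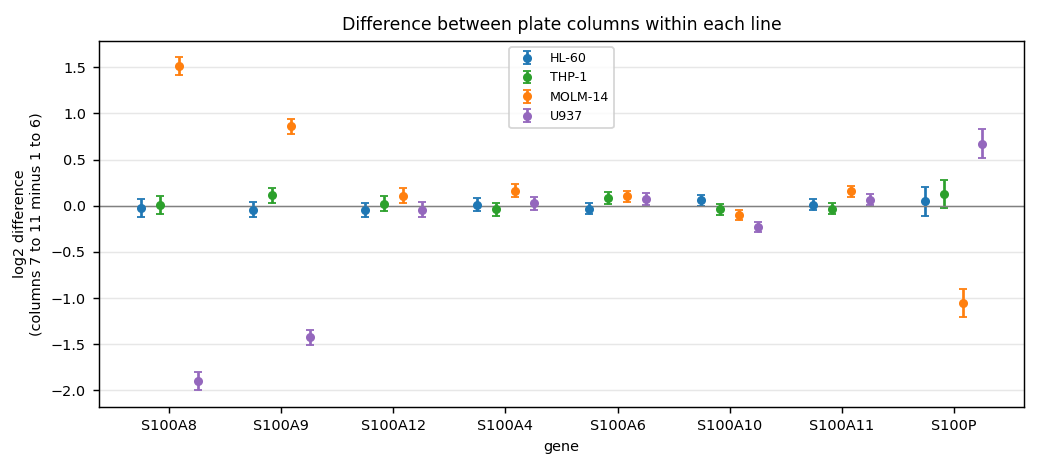
Log2 difference of plate columns 7 to 11 minus 1 to 6 within each line for each S100 gene, with the standard error of the plate-adjusted fit. HL-60 and THP-1 lie near 0, and S100A8 and S100A9 lie at 1.51 and 0.86 in MOLM-14 and at -1.90 and -1.43 in U937.

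RNA measures of the arrays moved with these columns in MOLM-14 and, by less, in U937. The ratio of the 3′ to the 5′ GAPDH control probe set was 0.962 to 1.00 in its columns 1 to 6 and 1.70 to 3.23 in columns 7 to 11, and for actin it was 1.55 to 1.78 and 2.95 to 5.84. In U937 the GAPDH ratio was 0.928 to 0.948 and 0.955 to 1.04, and the actin ratio 1.33 to 1.47 and 1.72 to 1.88. Myeloid identity markers were also higher in columns 7 to 11, 5 of 8 in MOLM-14 (median 0.26) and 5 of 8 in U937 (median 0.52). Of all genes, 34.2% and 36.0% were called in these lines in either direction. S100A8 went opposite ways in the 2 lines. The summed intensity of the markers ran from 6596 to 8676 in columns 1 to 6 and from 8358 to 12434 in columns 7 to 11 of MOLM-14, and from 6217 to 8670 and 13109 to 16098 in U937. The part of RNA quality and of myeloid marker level in the S100 differences was not tested.

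Some pairs of members varied together within lines. The Pearson correlation over the 11 arrays of a line, averaged over the 4 lines, was 0.96 for S100A8 with S100A9 (0.91 to 0.98 in single lines) and 0.87 for S100A4 with S100A6 (0.77 to 0.99). S100A12, which lies between S100A9 and S100A8, averaged 0.48 with S100A9 and 0.46 with S100A8. The neighbours S100A10 and S100A11 averaged 0.20 and reached -0.60 in THP-1. S100A8 with S100P averaged -0.13, being 0.94 in HL-60 but -0.61 in U937, -0.58 in THP-1 and -0.28 in MOLM-14. These are descriptions over arrays that share lines, hairpins and plate columns.

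By the same measure over all 12165 genes, the genes most like S100A8 were S100A9, HMOX1 (0.875), which encodes heme oxygenase 1, and GCLM (0.842), a subunit of the enzyme that starts glutathione synthesis. S100A9 had S100A8, GCLM (0.831) and HMOX1 (0.822). S100A4 had S100A6, CRYBG1 (0.852) and SLC7A7 (0.848), an amino acid transporter subunit. S100A6 had RTN4 (0.892), TRAF3IP3 (0.870) and S100A4. S100A10 had IRF9 (0.806), LGALS1 (0.773), which encodes galectin 1, and WIPI1 (0.767). S100A11 had PTPN6 (0.776), CDA (0.700) and LGALS3 (0.692), S100P had NIBAN1 (0.847), CEBPB (0.839) and HSPA13 (0.829), and S100A12, dim in most lines, had HIF1AN, CCND3 and LLGL2 at 0.614 to 0.602.

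Of the other S100 genes, 9 were measured, and none reached an intensity of 100 in control arrays of any line; S100A13 was the brightest in HL-60 at 26.1. Without the plate term limma called 0 of these 9 over the lines with either target. Hairpin 5 on its own called 1 of 9 higher, beside 11.5% of all genes. In the plate-adjusted fit S100A13 rose with GSK3A hairpins (0.12 ± 0.04, limma adjusted p = 0.0169), 1 of 9 beside 33.2% of genes, and 0 passed with GSK3B hairpins. Among 8 measured S100 receptor genes, LY96, the TLR4 co-receptor, rose with GSK3A hairpins (0.78 ± 0.11), ALCAM (-0.50 ± 0.09) and MCAM (-0.38 ± 0.07) fell, and 3 were higher and 2 lower in all, beside 21.0% of all genes called in either direction. With GSK3B hairpins MCAM alone of the 8 passed (-0.25 ± 0.07), beside 3.32% of all genes. Of 9 measured partner proteins of S100 members, 4 rose with GSK3A hairpins, beside 10.9% of all genes called higher, among them ANXA1 (0.40 ± 0.08), the partner of S100A11, AHNAK (0.26 ± 0.05), which binds S100A10 with annexin A2, and ANXA6 (0.26 ± 0.06), and 0 of 9 passed with GSK3B hairpins. ANXA2, the partner of S100A10, passed in the plate-adjusted fit (0.53 ± 0.05), in which 4 of 9 were higher and 3 lower, beside 33.2% of all genes called in either direction. By hairpin, 4 of the 9 passed as higher and 0 as lower with hairpin 5 (median 0.11), and 1 higher and 2 lower with hairpin 6 (median -0.03). Of all genes, 11.5% passed as higher with hairpin 5 and 8.80% with hairpin 6.

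Regulators known for the calprotectin genes were also measured, 9 of 9. With GSK3A hairpins 3 rose, among them HIF1A (0.23 ± 0.04) and CEBPD (0.21 ± 0.04), and MYB fell (-0.34 ± 0.05), beside 21.0% of all genes called in either direction. With GSK3B hairpins STAT3 (0.17 ± 0.03) and CEBPD (0.15 ± 0.04) rose, beside 3.32% of all genes called in either direction. Of genes that rise with maturation, 4 of 11 neutrophil genes (among them CSF3R 0.36 ± 0.08, CAMP 0.36 ± 0.09 and MNDA 0.24 ± 0.05) and 4 of 8 monocyte genes (among them CD14 0.33 ± 0.03, VCAN 0.25 ± 0.04 and FPR1 0.22 ± 0.05) rose with GSK3A hairpins, beside 10.9% of all genes called higher. No gene of either list passed as lower in this fit, but 1 of 11 neutrophil genes did in the plate-adjusted fit. By hairpin, 4 of 8 monocyte genes passed as higher with hairpin 5 and 1 with hairpin 6, and 5 and 3 of the 11 neutrophil genes, beside 11.5% and 8.80% of all genes. Of 8 myeloid identity markers, 1 passed as higher and 2 as lower with GSK3A hairpins (median -0.13), and 1 and 5 in the plate-adjusted fit (median -0.19). Beside these, 21.0% and 33.2% of all genes were called in either direction. ITGAM rose (0.39 ± 0.06), MPO (-0.39 ± 0.05) and PRTN3 (-0.43 ± 0.15) fell, and CTSG fell in the plate-adjusted fit (-0.52 ± 0.04). With GSK3B hairpins 1 of 11 neutrophil genes (MMP9, 0.26 ± 0.07) and 0 of 8 monocyte genes passed. Of the 8 identity markers 1 passed, as lower (MPO, -0.40 ± 0.05), beside 3.32% of all genes called in either direction. The median GSK3A change was 0.06 for the neutrophil list and 0.15 for the monocyte list, beside 0.00 for all genes.

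For 2 members the probes themselves limit what can be read. The second S100A8 probe set was dim, at 136 ± 30.0 (SD, n = 3) in HL-60 controls and 10.6 ± 0.441 in U937 controls, and in the plate-adjusted fit it did not pass for hairpin 5 minus 6 (0.09 ± 0.08, adjusted p = 0.514) or B-1 minus B-2 (0.20 ± 0.08, 0.0805). It did follow the bright one between plate columns in MOLM-14 (1.15 ± 0.10). In U937 it averaged 12.8 over the arrays of columns 1 to 6 and 12.5 over those of columns 7 to 11, below the array medians. The U937 plate difference of S100A8 is thus seen on the bright probe set only. S100A11 has a near-identical pseudogene, S100A11P1, with a probe set of its own whose GSK3A change of 0.07 ± 0.04 did not pass (adjusted p = 0.261), so signal may be shared between them. Without MOLM-14 the S100A11 change with GSK3A hairpins was 0.09 and did not pass (adjusted p = 0.146), and without HL-60 it was 0.15 (0.0612). Protein was not measured, and RNA level per cell cannot be told apart from the share of cells that express a gene.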

How the data were processed

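The 44 RNA samples were read on Affymetrix high-throughput human genome arrays. For each of 22277 probe sets the authors deposited a linear intensity. RMA and MAS5 are both named in the submitters' processing notes, and which gave this table is not said. Values were turned into log2(intensity + 16), and because array medians spanned 0.154 they were quantile-normalized. The probe set with the highest mean was kept per gene (19724 probe sets name 1 gene), leaving 12165 genes. A limma 3.58.1 model (R 4.3.3) took the means of all 20 groups of line and hairpin (24 residual degrees of freedom, 20 with the plate columns as a term in each line), and p-values were adjusted by Benjamini-Hochberg over all genes with a threshold of 0.05. Fits within columns 1 to 6 and 7 to 11 used means of line and target, with 12 and 8 residual degrees of freedom. The fit was tested on simulated data.

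Named genes are all members on every probe set, the targeted genes, up to 3 passing genes per target with the smallest adjusted p from each S100-related list, the 3 genes most like each member, and the brightest marker of a list in each line. The members and lists were chosen with earlier results of these data known. Alternatives were another pseudocount (1 or 32), other normalizations, a filter on dim genes, all probe sets, the plate columns, a replicate block, and leaving out each line and each array. Motif shares are over 34943 RefSeq promoter windows. The number of arrays limits the precision, and protein sequences were not analysed here.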

Additional observations from a re-analysis of the deposited data

Results flagged for a closer look

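The GSK3A hairpin change of 3 members differed between lines by the F-test of the interaction. For S100A4 the adjusted p was 0.0333, for S100A6 it was 2.77e-05 and for S100A10 it was 6.48e-04. S100A4 changed by 0.82 in HL-60 and 0.66 in MOLM-14, and by 0.45 in U937, with 0.28 in THP-1. S100A6 changed by 1.01, 0.85 and 0.27 in the same order, with 0.19 in THP-1. S100A10 changed by 0.43, 0.44 and 0.56, with -0.23 in THP-1, and the THP-1 values did not pass. In the plate-adjusted fit S100A4 in THP-1 did pass, at 0.29 (adjusted p = 0.0490).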

How the results depend on the processing

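Over the other normalizations, pseudocounts, filters and probe set rules and a random block for plate columns, every count of S100 calls stayed within 1.5 times its value. With the plate columns as a block, 6 members passed for GSK3A against GSK3B hairpins, 19 calls were made by single hairpins, 19 within lines and 7 for differences between lines, where 3, 12, 10 and 3 had been made without it. The block also raised the share of all genes called. It went from 21.8% to 33.8% for GSK3A against GSK3B, and from 7.83% to 24.9% for differences of the GSK3A change between lines. Columns 1 to 6 alone gave 2 members for GSK3A, 1 for GSK3A against GSK3B, 3 calls by single hairpins, 0 within lines and 0 between lines. Columns 7 to 11 alone gave 0, 1, 0, 0 and 0. Of all genes, columns 1 to 6 called 11.5% for GSK3A and 7.71% for GSK3A against GSK3B, and columns 7 to 11 called 0.345% and 3.18%. Leaving out HL-60 left 5 calls by single hairpins, and leaving out THP-1 left 1 difference between lines. No share of all genes is given for these fits or for those that leave out an array. Leaving out each array in turn gave 8 members between lines in control arrays, 4 for GSK3A, 0 for GSK3B, 3 to 4 for GSK3A against GSK3B, 9 to 13 by single hairpins, 9 to 13 within lines, 2 to 4 for differences between lines and 7 to 9 between plate columns. Among single members, S100A11 in GSK3A against GSK3B passed in 9 of these 44 fits. S100A10 in that contrast did not pass without HL-60 (0.13, adjusted p = 0.142), and S100P passed for GSK3A without MOLM-14 (0.39, adjusted p = 0.019). No call changed sign. Of 1440 values compared, 49 that passed in neither fit had another sign. With a replicate block, which gives each line a term for the replicate number, 5 members differed between lines, and S100A11 passed for GSK3A against GSK3B (0.10, adjusted p = 0.0136). Same-numbered arrays of a control and a hairpin correlated between -0.707 and 0.750 in their deviations, and same-numbered arrays of different hairpins between -0.008 and 0.800. For hairpins the number follows the plate columns, whereas control replicate 2 lies in columns 1 to 6, so the number was not taken to pair arrays over all groups. Dim genes such as S100A12 outside HL-60 are limited by their low signal.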
